A study of Mus musculus with 8 samples.

Results

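Camp, Ngp, Ltf, Lcn2, Chil3, Retnlg and Pglyrp1 encode proteins that neutrophils store in their specific and later granules or make late in their development. These 7 genes were taken as a list of names, drawn up with earlier results of these data known, and all 7 were found among the 27998 genes of a single-cell count table of mouse bone marrow KL cells. KL cells are sorted for c-Kit (CD117) and against the lineage markers CD3, CD4, CD8, CD45R, CD11b, TER119 and GR1, so the sort aims at stem and progenitor cells. All mice were female B6 mice of 3 to 4 months that had been born and raised under specific-pathogen-free (SPF) conditions. The SPF group stayed there, and the CVT group was moved to a conventional facility and lived for 1 month with mice born in it. By the mouse numbers in the sample titles each group held 10 mice, combined in 4 pools of 2 or 3 mice: SPF pools 1, 2, 7 and 8 and CVT pools 3, 4, 5 and 6. The study itself gives 8 mice per group for these pools. Mice 1 to 10 went into pools 1 to 4 and mice 11 to 20 into pools 5 to 8, so that each of these 2 pool sets had 2 pools of either group. The pool was the replicate, so p-values measure the spread between pools and single mice cannot be seen.

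Neutrophils fill their granules in the order in which the cargo genes are transcribed. Promyelocytes make the azurophil granule proteins such as myeloperoxidase and elastase, myelocytes and metamyelocytes make the specific granule proteins, and later cells make the gelatinase granule proteins. Among the specific granule genes, Camp encodes the precursor of the antimicrobial peptide cathelicidin, Ngp a granule protein related to it, Ltf the iron-binding protein lactoferrin and Lcn2 the siderophore-binding protein lipocalin 2. Chil3 encodes a chitinase-like protein that monocytes and macrophages can also make (reads of its near copy Chil4 could be counted with it or lost), Pglyrp1 a protein that binds bacterial peptidoglycan, and Retnlg a resistin-like secreted protein of late neutrophils. C/EBP epsilon, encoded by Cebpe, is the transcription factor known to be needed for specific granule genes. PU.1 and other C/EBP factors also act in this lineage.

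The windows upstream of 4 of the genes are shown because these genes stand for the patterns described here: Camp and Ngp, the most abundant, Lcn2, with both factor motifs, and Retnlg, which followed another course. The sequences are the 250 bases before the gene start in RefSeq (GRCm38.p6), read 5′ to 3′ along the gene, and all 7 genes matched an entry. Capitals mark matches, on either strand, to the C/EBP-like letters TTGCNNAA or the PU.1-like letters AGGAAG. The Camp window is chr9:109849457-109849706 on the minus strand, the Ngp window chr9:110419558-110419807 on the plus strand, the Lcn2 window chr2:32387740-32387989 on the minus strand and the Retnlg window chr16:48872358-48872607 on the plus strand.
Camp: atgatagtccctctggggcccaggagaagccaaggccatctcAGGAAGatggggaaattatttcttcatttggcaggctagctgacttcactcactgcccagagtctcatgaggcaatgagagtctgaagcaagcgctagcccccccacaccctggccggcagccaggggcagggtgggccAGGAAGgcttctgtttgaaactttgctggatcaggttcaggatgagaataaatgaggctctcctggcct
Ngp: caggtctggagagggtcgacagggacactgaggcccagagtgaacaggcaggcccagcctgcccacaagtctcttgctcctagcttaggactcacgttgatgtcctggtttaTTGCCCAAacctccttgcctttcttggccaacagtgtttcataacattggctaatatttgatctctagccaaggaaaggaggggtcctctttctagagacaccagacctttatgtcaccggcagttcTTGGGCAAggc
Lcn2: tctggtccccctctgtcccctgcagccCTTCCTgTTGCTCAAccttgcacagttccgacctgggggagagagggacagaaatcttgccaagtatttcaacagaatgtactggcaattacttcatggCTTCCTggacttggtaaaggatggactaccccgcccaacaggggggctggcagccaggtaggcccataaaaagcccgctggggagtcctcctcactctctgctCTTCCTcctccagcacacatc
Retnlg: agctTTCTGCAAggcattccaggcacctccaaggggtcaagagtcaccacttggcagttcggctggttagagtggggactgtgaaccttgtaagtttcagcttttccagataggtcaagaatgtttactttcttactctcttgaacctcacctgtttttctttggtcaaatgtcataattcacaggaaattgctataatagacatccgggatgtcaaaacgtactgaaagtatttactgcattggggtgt
The letters TTGCNNAA were found in 4 of the 7 windows (Ngp, Ltf, Lcn2 and Retnlg) and in 9.56% of 32851 RefSeq windows of this length. AGGAAG was found in 5 of the 7 (Camp, Ltf, Lcn2, Chil3 and Pglyrp1) and in 29.5% of all windows. The TATA box letters TATAAA were in none of the 7 and in 12.4% of all windows. No match of TTGCNNAA overlapped a match of AGGAAG in these windows. In Lcn2 the matches begin 216 bases before the gene start (TTGCNNAA) and 223, 124 and 21 bases before it (AGGAAG). Retnlg has its only match, TTGCNNAA, 246 bases before the start, and Ngp has matches 138 and 11 bases before it. Binding was not measured, so a match is a description of letters only.

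Each library counted transcripts by unique molecular identifiers (UMIs) at the 3′ end, and levels are given in CPM, the UMIs of a gene in every 1000000 UMIs of the same cells. A transcript gives 1 UMI whatever its length, so no length scaling was applied. The 29891 cells carried 19041749 to 59812346 UMIs per pool, and 518 cell barcodes occurred in 2 pools and 4 in 3 pools. Cells were grouped into 34 clusters with the 7 genes left out of the clustering, and clusters were named by marker genes, among which none of the 7 stood. Kit, the sort marker, was at a median of 79.8 CPM over the 8 pools (56.8 to 87.2) in all KL cells, and Cd3e and Cd8a, which mark T cells, reached at most 0.454 and 0.315 CPM in any pool. The clusters that carry the 7 genes, 19, 22 and 25, went against the GR1 and CD11b parts of the gate. Clusters 19 and 22 also went against its c-Kit part, while the Kit range of cluster 25 overlapped that of all KL cells. In cluster 19, Kit was at a median of 12.4 CPM (3.19 to 26.8) and Ly6g, whose product GR1 antibodies recognise, at a median of 1116 CPM (899 to 1277), against 1.5 CPM (0.472 to 2.93) in erythroid MEP-like cells. Itgam, which encodes CD11b, was at a median of 257 CPM in cluster 19 and 0.832 CPM in MEP-like cells. In clusters 22 and 25 the medians were 16.7 and 59.4 CPM for Kit, 216 and 195 CPM for Ly6g and 135 and 85.1 CPM for Itgam. Those of cluster 25 are over 7 pools.

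The 7 genes were concentrated in 3 clusters of granulocyte-like cells, which held 1648 of the 29891 cells. Over the 8 pools, a median of 90.5% of their UMIs came from these cells (88.1% to 93.3%), and the 7 genes made up between 0.192% and 1.36% of all UMIs of a pool. The share was highest for Camp, with a median of 93.4% of its UMIs in granulocyte-like cells (88.8% to 94.9%), followed by Ngp (92.5%), Ltf (91.9%), Lcn2 (90.1%) and Chil3 (88.1%). Pglyrp1 (75.6%, 54.8% to 86.2%) and Retnlg (69.99%, 59.6% to 86.5%) were the least concentrated, and every pool of theirs lay below every pool of Camp, Ngp, Ltf and Lcn2. For Chil3 the share was 77.1% to 87.9% in SPF pools and 88.3% to 92.2% in CVT pools, so the ranges nearly met. The difference was not tested, and how many of all genes separate in this way was not counted. In SPF pool 1, monocyte-like cluster 21, described below, held 87.7% of the Chil3 UMIs outside granulocyte-like cells.

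Within granulocyte-like cells Camp stood at 51471 ± 5606 CPM (SD, n = 8 pools), the highest of the 7, and Ngp at 39765 ± 5900. Lcn2 followed at 9053 ± 1404, Chil3 at 6581 ± 1526 and Ltf at 6101 ± 1054. Retnlg stood at 3256 ± 2069 and Pglyrp1 at 2919 ± 399. The ranges over pools of Chil3 (5651 to 10243), Ltf (5062 to 7906), Lcn2 (7599 to 11588) and Retnlg (1347 to 7851) overlapped. Within single pools, however, Lcn2 exceeded both Chil3 and Ltf in all 8, while Chil3 exceeded Ltf in some pools and not in others, as Retnlg did Pglyrp1. Camp and Ngp together accounted for most of the 7 genes' UMIs in these cells, at a mean of 43.3% and 33.4%.

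**Figure D1:**
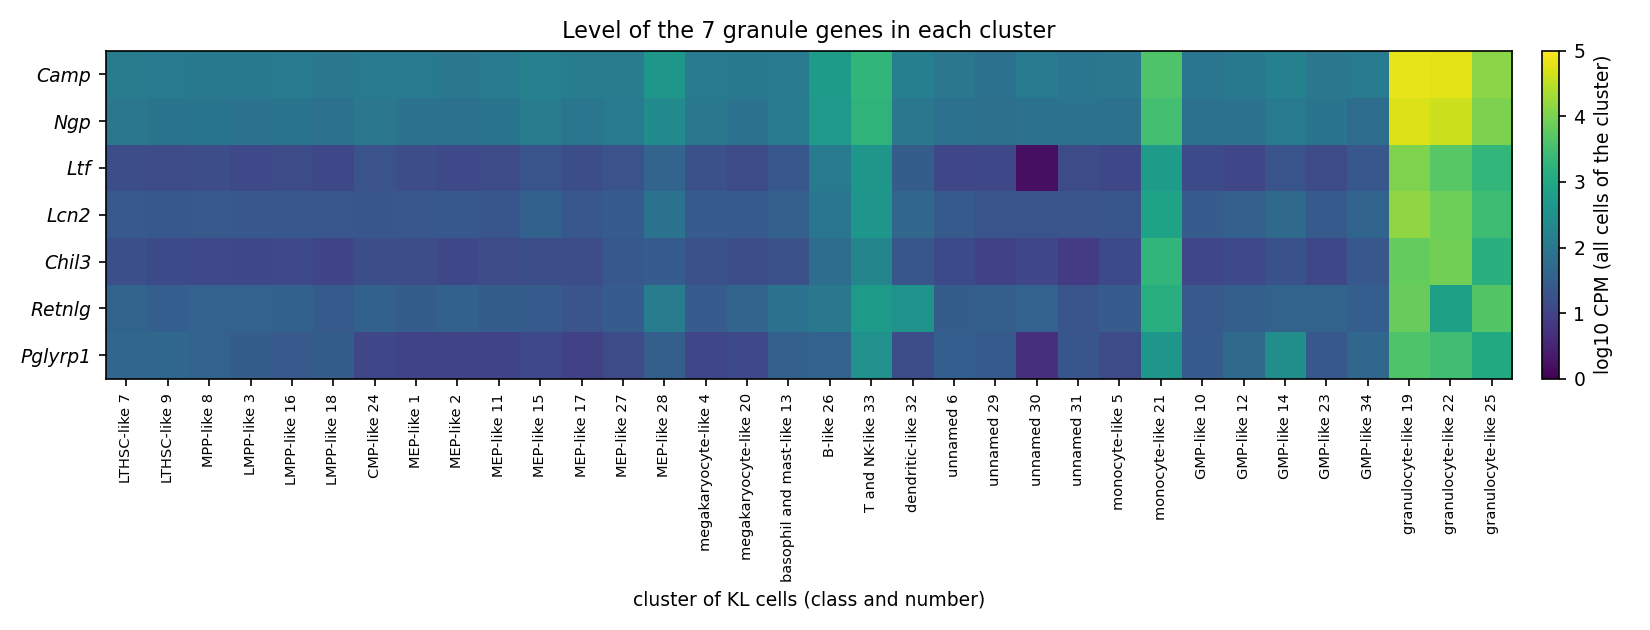
Level of the 7 genes (rows) in each of the 34 clusters (columns, by class and cluster number), as log10 CPM over all cells of a cluster. The bright columns are the granulocyte-like clusters 19, 22 and 25, and monocyte-like cluster 21 is next, with Camp at 4111 CPM and Chil3 at 1981 CPM.

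The granulocyte-like clusters differed in stage by genes outside the 7. Cluster 22 (584 cells) was led by Fcnb, S100a8 and S100a9 and still held the azurophil gene Elane at 5613 CPM. Cluster 19 (753 cells) was led by Ifitm6, Ly6g and Wfdc21, with Elane at 93.6 CPM and the gelatinase granule gene Mmp9 at 625 CPM. Cluster 25 (311 cells) was led by Gm5483, Mmp8 and Mmp9 and had Il1b and the chemokine receptor gene Cxcr2 among its leading genes, but also Kit at a median of 59.4 CPM and Elane at 967 CPM. Of its cells, 64.3% were in the top 5% of doublet scores of their pools, against 0.797% in cluster 19 and 5.48% in cluster 22. What part droplets with more than 1 cell have in the levels of cluster 25 was not tested.

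From the GMP-like clusters (GMP, granulocyte-monocyte progenitor) to these clusters the 7 genes did not rise in step. Cluster 14, a GMP-like cluster of 916 cells led by Elane, Ms4a3 and Rgcc, had the highest level of Elane of the clusters described (13434 CPM) with Cebpe at 196 CPM. In it Pglyrp1 stood at a median of 303 CPM over pools (261 to 367.6), above the 54.8 CPM (23.6 to 68.3) of GMP-like cluster 12, which was led by Mpo, Ctsg and Cpa3. The ranges of Pglyrp1 in clusters 12 and 14 did not overlap. Camp was at a median of 103 CPM in cluster 12 and 154 CPM in cluster 14, and Lcn2 at 37.3 and 55.6 CPM, with overlapping ranges for both. No pool of either cluster was above 48.4 CPM for Ltf or 40.3 CPM for Chil3.

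In cluster 22, where Cebpe was at 812 CPM, 6 of the 7 genes were at high levels. Camp had a median of 60311 CPM over pools (53822 to 69014), Ngp 41504 (39851 to 54800), Chil3 8019 (7313 to 12809), Lcn2 7765 (7240 to 9845), Ltf 5151 (3601 to 6417) and Pglyrp1 2913 (2827 to 3439). Retnlg was the exception, at a median of 577 CPM and between 81.0 and 1200 CPM in single pools.

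In cluster 19 Camp was about as high, at a median of 64733 CPM (59288 to 70777), and its range overlapped that of cluster 22. Lcn2 was higher than in cluster 22 in every pool, at 13340 to 18743 CPM, as was Ltf, at 9859 to 11503 CPM, and Pglyrp1, at 3666 to 4382 CPM. Chil3 had a median of 6857 CPM (5769 to 7809), below that of cluster 22, with overlapping ranges. Retnlg reached a median of 4633 CPM with a range of 1359 to 14580 CPM, above every pool of cluster 22. In cluster 25, over the 7 pools with at least 10 of its cells, Camp (7332 to 19544 CPM), Ngp (6208 to 14507), Lcn2 (1842 to 4203), Ltf (1481 to 2832), Chil3 (887 to 2155) and Pglyrp1 (619 to 1264) lay below every pool of cluster 19. Retnlg did not, at a median of 4571 CPM (2976 to 5769). These clusters were defined by expression, so their levels are a description with no test.

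**Figure D2:**
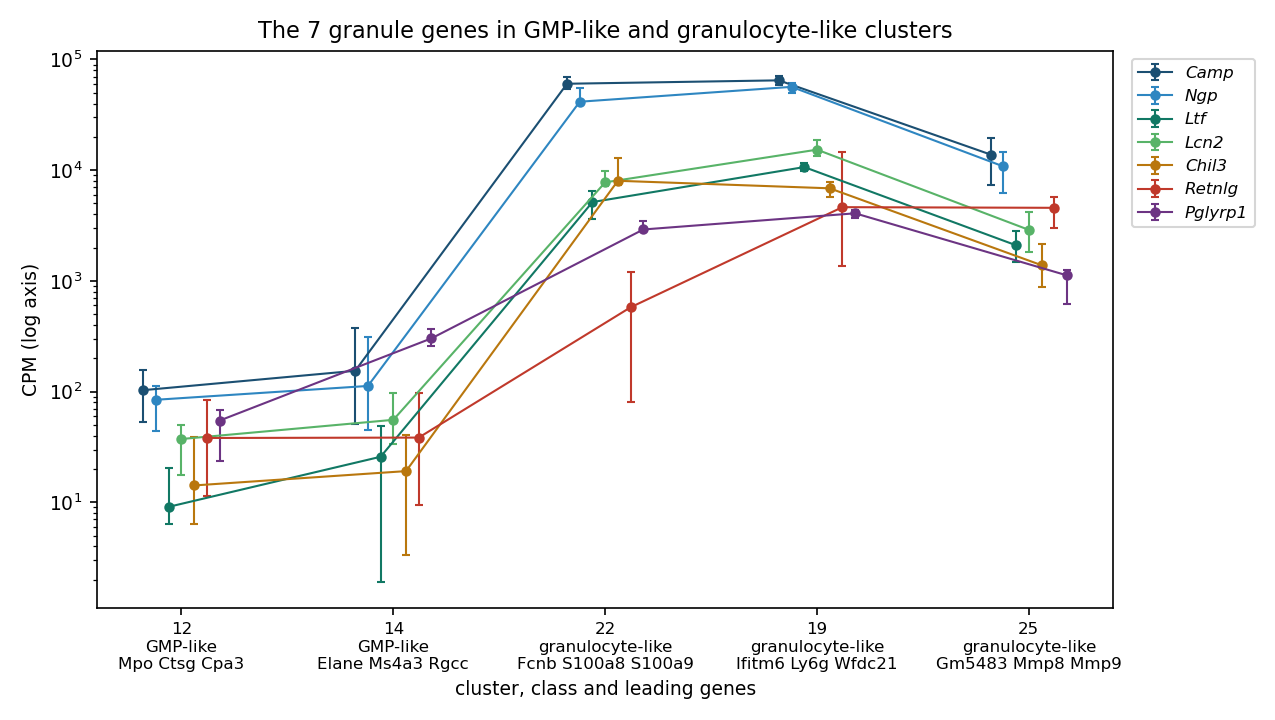
Level of each gene in GMP-like clusters 12 and 14 and granulocyte-like clusters 22, 19 and 25, as the median CPM over pools (points, log axis) with the lowest and highest pool (bars); lines join the same gene and do not stand for measured time. Pglyrp1 leads the 7 genes in cluster 14 at 303 CPM, and Retnlg is the lowest in cluster 22 at 577 CPM and has the widest bar in cluster 19.

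Cell by cell, Retnlg went against some of the genes and was near 0 with others. Over the 1648 granulocyte-like cells, each thinned to 2759 UMIs, the Spearman correlation within a pool of Camp with Ngp had a median over pools of 0.68 (0.46 to 0.77), and that of Ltf with Lcn2 of 0.76 (0.59 to 0.86). Chil3 with Retnlg gave -0.50 (-0.65 to -0.32) and Camp with Retnlg -0.43 (-0.54 to -0.26), negative in all 8 pools, as was Ngp with Retnlg at -0.33 (-0.47 to -0.12). Retnlg with Ltf (-0.04, -0.27 to 0.11), Lcn2 (-0.16, -0.22 to 0.10) and Pglyrp1 (-0.02, -0.17 to 0.36) took both signs. These cells share libraries and depth, and counts within a cell compete for a fixed number of UMIs, so the values are a description. Across the 34 clusters, S100a9 and S100a8, which encode the calprotectin subunits of the neutrophil cytosol, were the genes outside the 7 most like their mean on the log2(CPM + 1) scale (Pearson's r = 0.994 for both). They were followed by Wfdc21 (0.987), Cd177, which encodes a neutrophil surface protein (0.982), 9830107B12Rik (0.982), 4930438A08Rik (0.979), C5ar1, which encodes a complement receptor (0.979), Ppp1r42 (0.977), Lrg1 (0.977) and Fpr2, which encodes a formyl peptide receptor (0.975). Among the 7 themselves, Lcn2 was nearest to the mean (0.997) and Pglyrp1 farthest from it (0.929).

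Outside the granulocyte-like clusters the 7 genes were low but found in many cells. A Camp UMI was found in a median of 60.1% of MEP-like cells, which have no granulocyte programme, in 52.2% of LTHSC-like cells (LTHSC, long-term stem cell) and in 75.0% of GMP-like cells, whose median UMIs per cell over pools were 7928, 6055.5 and 15036. With every cell thinned to 2759 UMIs the shares were 27.3%, 28.0% and 25.9%. As CPM, Camp was 144 ± 68.0 in MEP-like, 114 ± 40.5 in LTHSC-like and 122 ± 42.2 in GMP-like cells (SD, n = 8 pools). Ngp, at 107 ± 43.3, 89.4 ± 26.7 and 97.6 ± 28.7 CPM, and Lcn2, Chil3, Ltf and Retnlg were likewise no higher in LTHSC-like or GMP-like cells than in MEP-like cells beyond their spread over pools. Compared within the same pool, however, Lcn2 was higher in GMP-like than in MEP-like cells in pools 1 to 6 and lower in pools 7 and 8, which was not tested. Such levels are called background here, and whether they come from RNA of other cells or from expression was not tested. The summed level of the 7 genes in MEP-like cells ranged over pools from 117 to 567 CPM, which was 3.90% to 9.72% of the level in all cells of the same pool.

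Pglyrp1 was the exception to this background. It stood at 106 ± 18.9 CPM in GMP-like cells (80.4 to 141) and at 46.2 ± 4.38 in LTHSC-like cells (39.2 to 53.8), against 12.1 ± 4.25 in MEP-like cells (5.33 to 16.6), and these ranges did not overlap. MPP-like cells (multipotent progenitors) had 38.4 ± 5.25 CPM of Pglyrp1, LMPP-like cells (lymphoid-primed) 29.8 ± 4.59 and megakaryocyte-like cells 12.3 ± 4.05. Thinned to equal UMIs, a Pglyrp1 UMI was found in 19.5% of GMP-like cells (13.4% to 24.3%), 11.2% of LTHSC-like cells (8.65% to 15.2%) and 3.10% of MEP-like cells (1.69% to 4.33%). The make-up of the 7 genes' UMIs moved with it. Pglyrp1 gave a median of 2.42% of them in granulocyte-like cells (2.34% to 2.57%), 3.53% in MEP-like cells (2.55% to 4.55%), 12.6% in LTHSC-like cells (10.1% to 25.1%) and 23.9% in GMP-like cells (19.1% to 40.8%). GMP-like cells held a median of 10.2% of all Pglyrp1 UMIs (3.94% to 27.9%) and 0.811% of all Camp UMIs. Retnlg also took a larger part in MEP-like cells (median 9.55%, 7.08% to 12.8%) than in granulocyte-like cells (2.32%, 1.19% to 6.01%), although its level in MEP-like cells was 36.6 ± 19.7 CPM.

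**Figure D3:**
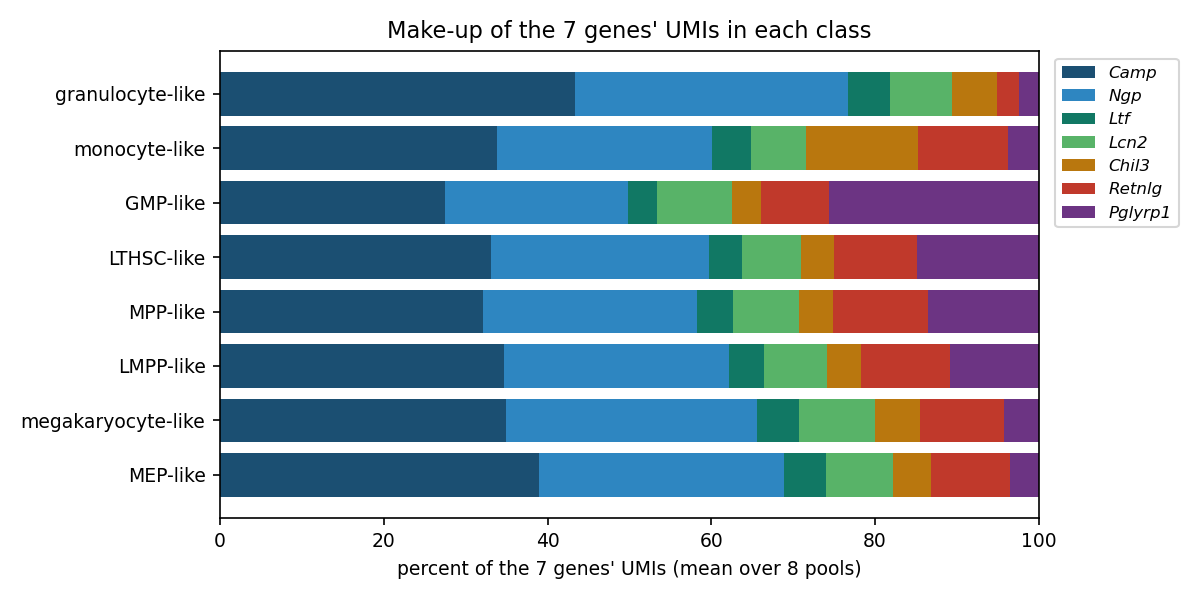
Make-up of the 7 genes' UMIs in each class, as the mean percent over 8 pools that each gene contributes (stacked bars, 0 to 100%). Pglyrp1 contributes a mean of 25.6% in GMP-like and 14.9% in LTHSC-like cells against 2.45% in granulocyte-like and 3.50% in MEP-like cells.

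Outside the granulocyte-like clusters, monocyte-like cluster 21 held a larger part of the Chil3 UMIs than of those of the other 6 genes. In cluster 21 (589 cells, led by S100a4, Fn1 and Lgals3, with the monocyte genes Ccr2 and Csf1r), Chil3 was at a median of 1642 CPM over pools (867 to 4899), Retnlg at 1430 CPM (192 to 1900) and Camp at 4452 CPM (2085 to 7546). Of the Chil3 UMIs outside granulocyte-like cells, this cluster held a median of 56.6% (26.6% to 87.7%), against 33.8% for Ltf, 33.4% for Camp, 32.1% for Retnlg, 30.9% for Ngp, 28.1% for Lcn2 and 14.98% for Pglyrp1. Of its cells, 19.7% were in the top 5% of doublet scores, and their part in these levels was not tested. With such cells left out of every cluster, Camp, Ngp and Ltf were lower in monocyte-like cells, as given at the end. Cluster 21 made up 3.76%, 1.014%, 4.31% and 2.51% of the cells of SPF pools 1, 2, 7 and 8 and 0.599%, 0.551%, 3.09% and 2.14% of those of CVT pools 3, 4, 5 and 6. Its Chil3 level was 4899, 1456, 2062 and 2189 CPM in the SPF pools and 917, 1818, 1466 and 867 CPM in the CVT pools. The groups overlapped in both values, while among pools 1 to 4 both SPF pools had the larger share. Dendritic-like cluster 32 had a Retnlg median of 58.6 CPM over 5 pools but 1315 CPM in the highest.

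The comparison of CVT with SPF asked whether a month of co-housing in the conventional facility was accompanied by a change in these genes. The study states that food, ventilation, cage covering and barrier control also differed, so microbial exposure cannot be told apart from these. In all KL cells none of the 7 passed the test, and all 7 had lower means in CVT pools. Camp was at 3015, 1285, 5530 and 2415 CPM in SPF pools 1, 2, 7 and 8 and at 1286, 790, 3645 and 3548 CPM in CVT pools 3, 4, 5 and 6. SPF pool 7 was the highest of all for Camp and CVT pool 4 the lowest, and the groups overlapped. Ngp was at 2563, 1030, 4305 and 1756 CPM in the SPF pools and 1017, 661, 2582 and 2456 CPM in the CVT pools. Lcn2 was at 565, 259, 1060 and 395 CPM against 226, 160, 568 and 571 CPM, again with the lowest values in CVT pools 3 and 4. Ltf was at 381, 138, 773 and 271 CPM in the SPF pools and at 158, 92.6, 439 and 383 CPM in the CVT pools. The groups overlapped for each of these genes. In all 4 genes CVT pools 5 and 6 lay above CVT pools 3 and 4, and SPF pools 7 and 1 were the highest of their group.

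Of the other genes, Chil3 and Retnlg had the largest differences of the 7 and Pglyrp1 the smallest. Chil3 was at 593, 158, 706 and 373 CPM in SPF pools 1, 2, 7 and 8 and at 158, 105, 435 and 394 CPM in CVT pools 3, 4, 5 and 6. Retnlg was at 239, 85.8, 883 and 194 CPM in the SPF pools and at 45.0, 38.5, 350 and 237 CPM in the CVT pools. Pglyrp1 was at 203, 99.0, 375 and 160 CPM in the SPF pools and at 97.2, 76.1, 236 and 229 CPM in the CVT pools. For all 3 genes the highest value was that of SPF pool 7, and the groups overlapped.

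On the log2 scale the difference, CVT over SPF, was -1.04 ± 0.83 for Retnlg and -0.70 ± 0.52 for Chil3 (edgeR, ± SE, adjusted p = 0.81 and 0.79). It was -0.55 ± 0.50 for Lcn2, -0.51 ± 0.57 for Ltf, -0.49 ± 0.50 for Ngp, -0.37 ± 0.53 for Camp and -0.35 ± 0.45 for Pglyrp1, with adjusted p between 0.84 and 0.90. The test called 0 of 13092 genes (0%), while 921 genes (7.03%) had an unadjusted p under 0.05, none of the 7 among them, and DESeq2 called 13 genes and none of the 7. The median over the 7 was -0.51, against -0.01 over all genes tested. No member had pools that did not overlap between groups, against 0.901% of all genes with CVT higher and 5.26% with CVT lower. Without SPF pool 7 the median of the 7 was 0.01, and Camp, Ltf, Pglyrp1 and Retnlg turned to 0.11, 0.09, 0.11 and 0.01. With the pool set as a term in the fit the median was -0.65, and Retnlg (-1.35 ± 0.45) and Chil3 (-0.89 ± 0.38) had unadjusted p of 0.0123 and 0.0382, with edgeR adjusted p of 0.27 and 0.35. Of all 13092 genes, 707 with CVT higher and 1070 with CVT lower had an unadjusted p under 0.05 in that fit.

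**Figure D4:**
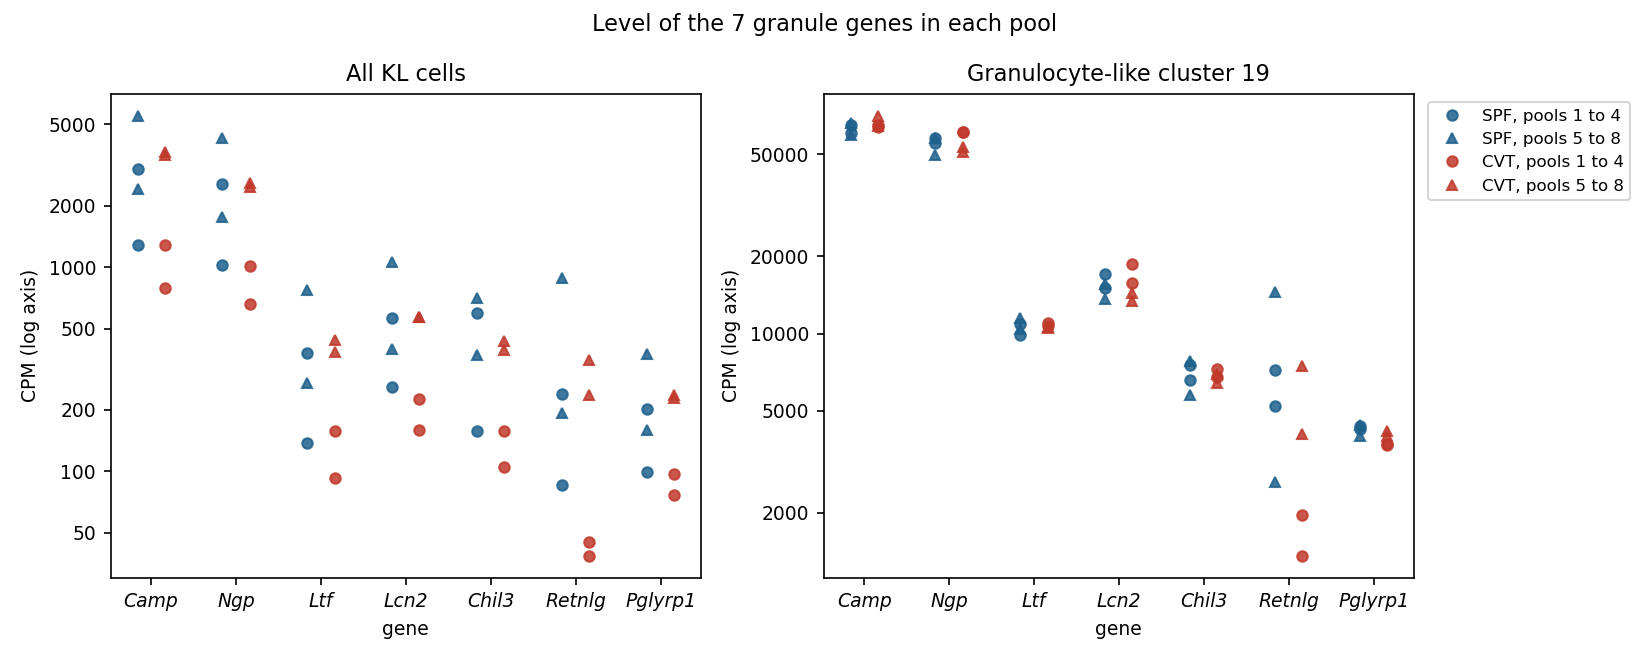
Level of each gene in each pool (CPM, log axis) for SPF (blue) and CVT (red) pools, circles for pools 1 to 4 and triangles for pools 5 to 8, in all KL cells (left) and in granulocyte-like cluster 19 (right). In all KL cells every gene spreads widely and the groups overlap, with Camp from 790 to 5530 CPM; in cluster 19 the pools lie close together for every gene but Retnlg, which runs from 1359 to 14580 CPM.

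In all KL cells, fewer granulocyte-like cells and less RNA per such cell cannot be told apart, so the share of these cells was compared by itself. Their share of cells was 6.36%, 2.99%, 12.5% and 5.25% in SPF pools 1, 2, 7 and 8 and 2.83%, 2.42%, 7.88% and 8.05% in CVT pools 3, 4, 5 and 6. The mean was 6.76% ± 4.04 in SPF and 5.29% ± 3.09 in CVT pools (SD, n = 4 each; exact permutation test, two-sided p = 0.6). The smallest p that 4 pools against 4 allow is 0.0286. SPF pool 7, the highest in the 7 genes, had the largest share, and without it the difference turned from -1.47 to 0.43 percentage points. Neither cluster 19 (SPF 3.79% ± 3.33, CVT 2.21% ± 1.57, exact p = 0.429) nor cluster 22 (2.22% ± 0.834, 1.89% ± 0.862, exact p = 0.714) nor cluster 25 (0.754% ± 0.516, 1.19% ± 0.676, exact p = 0.314) differed beyond the spread between pools.

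Within granulocyte-like cells, where the number of such cells no longer enters, the differences had smaller errors and the same sign, and that of Retnlg was the largest. They depended on which cells entered. Without the cells of the top 5% of doublet scores the median of the 7 moved from -0.33 to -0.04, Camp turned to 0.03, and of the 7 only Retnlg (-0.98 ± 0.39) had an unadjusted p under 0.05. The log2 differences were -0.47 ± 0.19 for Chil3, -0.38 ± 0.17 for Lcn2, -0.33 ± 0.17 for Pglyrp1, -0.32 ± 0.19 for Ngp and Ltf, -0.23 ± 0.19 for Camp and -1.01 ± 0.38 for Retnlg. None passed edgeR's adjusted p (0.76 to 0.83), and 0 of 7130 genes (0%) were called. Retnlg, Chil3 and Lcn2 had an unadjusted p under 0.05 (0.0172, 0.0245 and 0.0435), as did 6.41% of all genes. DESeq2 called 0 genes, and 331 had an unadjusted p under 0.05 by it. With every gene that had a UMI kept in the fit, 34 of 14457 genes were called, Retnlg among them (-1.01 ± 0.15, edgeR adjusted p = 2.85e-08). Retnlg was at 3642, 2631, 7851 and 2729 CPM in SPF pools 1, 2, 7 and 8 and at 1347, 1365, 3878 and 2605 CPM in CVT pools 3, 4, 5 and 6, so the groups overlapped, and without SPF pool 7 its difference was -0.46 ± 0.32. Chil3 was the 1 member whose pools did not overlap, with 10243, 6065, 6364 and 6779 CPM in the SPF pools and 6054, 5651, 5744 and 5745 CPM in the CVT pools, against 1.14% of all genes in this direction and 1.60% in the other. SPF pool 2 and CVT pool 3 nearly met.

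The mix of clusters in this class differed between pools, so each cluster was also fitted alone. In cluster 19 Camp (0.04 ± 0.08), Ngp (0.00 ± 0.07), Ltf (-0.03 ± 0.08), Lcn2 (-0.02 ± 0.09) and Chil3 (-0.05 ± 0.09) were near 0 with standard errors under 0.1 on the log2 scale, and Pglyrp1 was at -0.16 ± 0.09. The highest pool exceeded the lowest by a factor of 1.19 for Camp, 1.17 for Ltf and 1.40 for Lcn2. For Retnlg the factor was 10.7, with 7224, 5194, 14580 and 2639 CPM in SPF pools 1, 2, 7 and 8 and 1953, 1359, 7467 and 4071 CPM in CVT pools 3, 4, 5 and 6. Its difference was -1.01 ± 0.43 (edgeR, unadjusted p = 0.0305, adjusted p = 0.52), and the groups overlapped. The test called 2 of 2203 genes (0.0908%), neither of them among the 7, and 8.76% of genes had an unadjusted p under 0.05.

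In cluster 22 the 7 genes lay between -0.33 ± 0.16 (Chil3) and -0.00 ± 0.13 (Pglyrp1), with 0 of 4595 genes (0%) called by edgeR and 2.72% at an unadjusted p under 0.05, none of the 7 among them. Retnlg differed between its pools by a factor of 14.8, at 1200, 81.0, 406 and 1097 CPM in the SPF pools and 230, 534, 1025 and 621 CPM in the CVT pools, with a difference of -0.21 ± 0.52. In cluster 25 Retnlg was at -0.37 ± 0.13 (edgeR, unadjusted p = 0.0107, adjusted p = 1.0), with 0 of 3263 genes (0%) called and 3.52% at an unadjusted p under 0.05. SPF pool 1 held only 4 cells of that cluster. The other 6 genes in cluster 25 lay between -0.30 ± 0.21 (Lcn2) and 0.20 ± 0.19 (Camp).

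In KL cells outside the granulocyte-like clusters, Chil3 had the largest difference of the 7. It was at 142, 19.6, 95.8 and 66.1 CPM in SPF pools 1, 2, 7 and 8 and at 13.5, 10.0, 54.6 and 32.6 CPM in CVT pools 3, 4, 5 and 6, and the groups overlapped. The log2 difference was -1.49 ± 0.60 (edgeR, unadjusted p = 0.0318, adjusted p = 0.57), with 0 of 13004 genes (0%) called and 8.17% at an unadjusted p under 0.05. By DESeq2 48 genes were called, none of the 7 among them. No member had pools that did not overlap, against 0.977% of all genes with CVT higher and 6.26% with CVT lower. Cluster 21, the monocyte-like cluster with the Chil3 level given above, held between 26.6% and 87.7% of these Chil3 UMIs, more in SPF pool 1 (87.7%) than in any other pool. Pglyrp1 differed by 0.03 ± 0.19 here, and the other 5 genes by between -0.63 ± 0.41 (Camp) and -0.46 ± 0.34 (Lcn2). With the pool set as a term, 6 of the 7 had an unadjusted p under 0.05 by edgeR, all but Pglyrp1. Of all 13004 genes, 789 with CVT higher and 1159 with CVT lower also did in that fit. The median of the 7 was then -0.70, with Chil3 at -1.72 ± 0.53 and Camp at -0.76 ± 0.22 (edgeR adjusted p = 0.19 and 0.17). Without the top doublet scores the median of the 7 moved from -0.57 to -0.11, with Chil3 at -1.56 ± 0.62.

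In LTHSC-like cells 6 of the 7 genes had a positive log2 difference by edgeR, CVT over SPF, and none passed the test. Pglyrp1 was at 43.9, 42.5, 46.6 and 39.2 CPM in SPF pools 1, 2, 7 and 8 and at 47.4, 48.4, 47.9 and 53.8 CPM in CVT pools 3, 4, 5 and 6. Every CVT pool lay above every SPF pool, which 0.778% of all 9514 genes tested also showed in this direction, with 2.88% in the other. The log2 difference was 0.27 ± 0.11 (edgeR, unadjusted p = 0.0208, adjusted p = 0.92), with 0 genes (0%) called, 5.38% of genes at an unadjusted p under 0.05, and 0 called by DESeq2. The other 6 genes lay between -0.03 ± 0.28 (Chil3) and 0.49 ± 0.28 (Ltf), at levels near those in MEP-like cells. With the pool set as a term 3 of the 7 had an unadjusted p under 0.05 by edgeR. So did 382 genes with CVT higher and 281 with CVT lower, of all 9514.

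In GMP-like cells Pglyrp1 was at 87.9, 80.4, 115 and 113 CPM in the SPF pools and at 99.9, 98.0, 113 and 141 CPM in the CVT pools, and the difference was 0.23 ± 0.12 (edgeR, unadjusted p = 0.0773, adjusted p = 0.85). The groups overlapped, and in both the pools of mice 11 to 20 were the higher. With the pool set as a term the difference was 0.25 ± 0.07 (edgeR, unadjusted p = 0.00088, adjusted p = 0.19). In that fit 481 genes with CVT higher and 431 with CVT lower, of 10240, had an unadjusted p under 0.05. The other 6 genes lay between -0.39 ± 0.28 (Chil3) and -0.02 ± 0.15 (Lcn2). The test called 0 of 10240 genes (0%), with 5.95% at an unadjusted p under 0.05. The DESeq2 test called 1 gene, outside the 7. Pools did not overlap for 0 of the 7, against 1.15% of all genes with CVT higher and 4.07% with CVT lower. In MEP-like cells, taken as the background, the 7 genes lay between -0.55 ± 0.38 (Camp) and -0.14 ± 0.32 (Pglyrp1), with 0 of 10882 genes (0%) called by edgeR, 6.52% at an unadjusted p under 0.05 and 3 called by DESeq2. With the pool set as a term 4 of the 7 had an unadjusted p under 0.05 in MEP-like cells, with edgeR adjusted p of 0.58. Of all 10882 genes, 363 with CVT higher and 561 with CVT lower had an unadjusted p under 0.05 in that fit. There too 0 of the 7 had pools that did not overlap, against 0.882% of all genes with CVT higher and 2.78% with CVT lower.

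**Figure D5:**
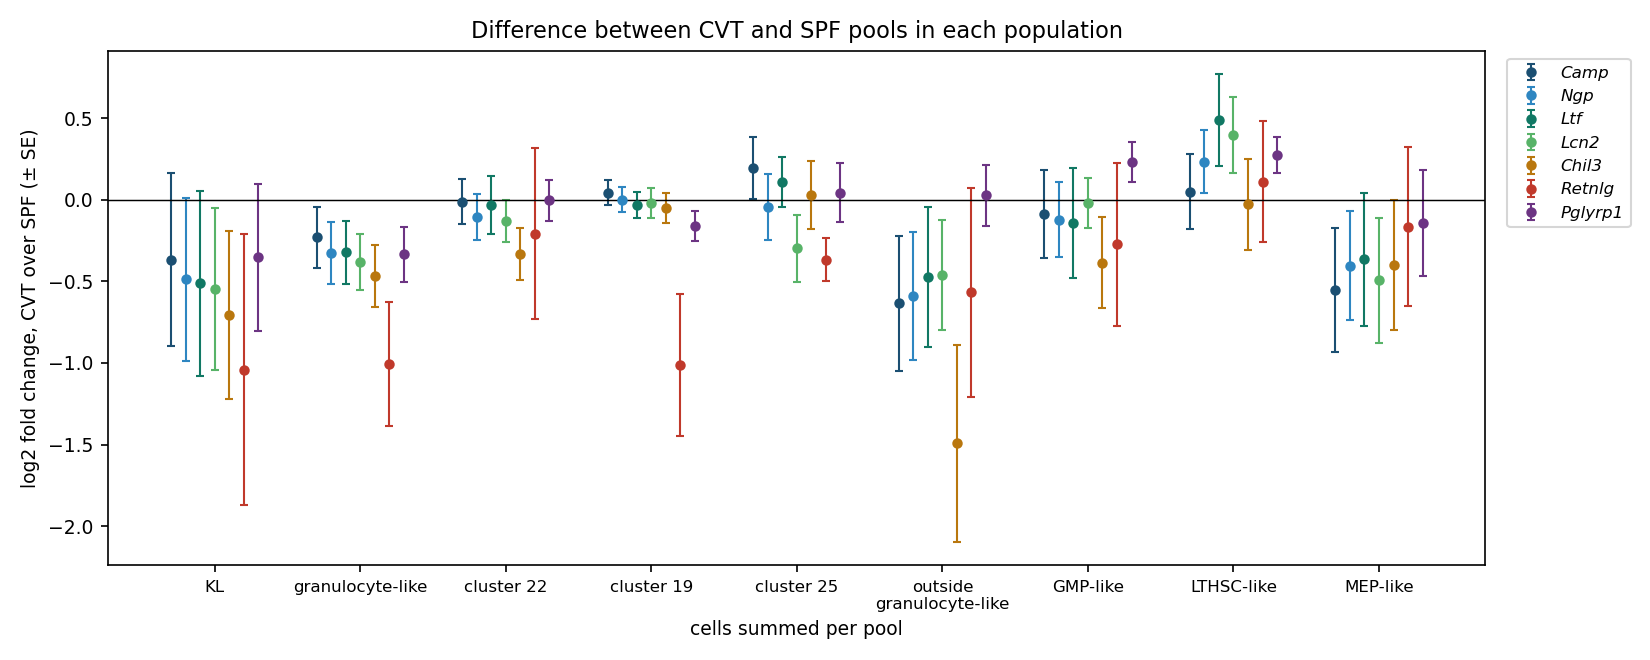
Log2 fold change of each gene, CVT over SPF, with its SE from edgeR (points and bars), in all KL cells, granulocyte-like cells, clusters 22, 19 and 25 alone, KL cells outside the granulocyte-like clusters, and GMP-like, LTHSC-like and MEP-like cells. In cluster 19, 5 of the genes lie within 0.05 of 0 while Retnlg lies at -1.01, and outside the granulocyte-like clusters Chil3 lies lowest at -1.49.

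The difference between the groups was not the same in the pool sets for Camp and Ngp in GMP-like cells. Camp was at 95.8 and 142 CPM in SPF pools 1 and 2 and 87.1 and 49.0 CPM in CVT pools 3 and 4, but at 124 and 142 CPM in SPF pools 7 and 8 and 172 and 166 CPM in CVT pools 5 and 6. Its log2 difference was -0.82 ± 0.15 in the set of pools 1 to 4 and 0.37 ± 0.15 in that of pools 5 to 8. The interaction was 1.19 ± 0.21 (edgeR adjusted p = 0.0064). Ngp gave an interaction of 1.14 ± 0.20 (adjusted p = 0.0064), from -0.77 ± 0.14 to 0.37 ± 0.14. The test called 14 of 10240 genes (0.137%), these 2 of the 7 among them. Chil3 (1.16 ± 0.32), Retnlg (0.92 ± 0.25) and Lcn2 (0.55 ± 0.18) leaned the same way without passing (edgeR adjusted p = 0.22, 0.22 and 0.38), and Pglyrp1 did not (-0.09 ± 0.13). MEP-like cells, whose level of these genes is called background here, moved between the sets too, and 0 of 10882 genes (0%) were called there. Retnlg had an interaction of 1.44 ± 0.34 (from -1.18 to 0.25, edgeR, unadjusted p = 0.0012, adjusted p = 0.82), which is larger than those of Camp and Ngp in GMP-like cells, and Pglyrp1 one of 0.79 ± 0.24 (unadjusted p = 0.0066, edgeR adjusted p = 0.82). Camp was at -0.91 ± 0.20 in pools 1 to 4 and -0.40 ± 0.20 in pools 5 to 8, with an interaction of 0.51 ± 0.28 (edgeR adjusted p = 0.82). Camp in MEP-like cells was at 108, 125, 217 and 241 CPM in SPF pools 1, 2, 7 and 8 and at 78.4, 42.6, 173 and 169 CPM in CVT pools 3, 4, 5 and 6. How far free RNA sets the values in GMP-like cells was not tested.

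Other neutrophil genes, counted by lists, lay mostly on the same side as the 7 in KL cells, and most azurophil genes on the other. No gene of any list passed edgeR's adjusted p. Of the other specific granule genes (among them Fcnb, Cd177, Mmp8, Lyz2 and Cybb) 10 of 12 were tested. All 10 had a negative log2 difference, CVT over SPF, with a median of -0.37. Of 14 gelatinase granule and late neutrophil genes 13 were lower (median -0.51), among them Ly6g (-0.74 ± 0.58) and Mmp9 (-0.76 ± 0.71), and all 4 cytosol genes, with S100a8 and S100a9 at -0.45. Of the 7 azurophil genes 6 were higher (median 0.38) and Ctsc, which encodes cathepsin C, was lower in every CVT pool than in every SPF pool (-0.32 ± 0.08, edgeR, unadjusted p = 0.0026, adjusted p = 0.64), as were 5.26% of all genes. Ctsc was named after its values were seen. Among the 6 were Elane, the neutrophil elastase gene, at 0.49 ± 0.13 (edgeR, unadjusted p = 0.00298, adjusted p = 0.64) and Mpo at 0.40 ± 0.16. The 6 tested regulator genes were near 0 (median -0.05), with Cebpe at -0.09 ± 0.24, Gfi1 at 0.08 ± 0.21 and Spi1, which encodes PU.1, at -0.04 ± 0.08. Cebpd was not analysed here. The 4 haemoglobin genes, taken as a mark of erythroid RNA, were at a median of -0.40 in KL cells and of -1.13 in granulocyte-like cells, and their part in these results was not tested.

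Within granulocyte-like cells, where 6.41% of all genes had an unadjusted p under 0.05, the neutrophil lists lay on the same sides as in KL cells. The other specific granule genes were all 10 lower (median -0.29, 3 with an unadjusted p under 0.05), of the gelatinase and late genes 11 of 13 tested were lower (median -0.42, 5 with an unadjusted p under 0.05), and the 7 azurophil genes were all higher (median 0.27, none with an unadjusted p under 0.05). Mmp8 was at -0.70 ± 0.28, Ly6g at -0.61 ± 0.21 and Lyz2, the lysozyme gene, at -0.51 ± 0.18, with edgeR adjusted p of 0.76 for each. The mix of clusters in this class differed between pools. The lists were not counted in single clusters or without the top doublet scores, where the median of the 7 genes moved from -0.33 to -0.04.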

How the data were processed

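Droplet single-cell RNA-seq (10x Chromium 3′, V2) of KL cells from 8 pools was used. The deposited table held UMI counts per gene and cell, as the authors made it with Cell Ranger (version not given in the sources used here) after their own filters on cells, and the submitters' processing notes name the mm9 build. Pools were taken from the number that ends each cell name, matched to the number in the sample description. The cell numbers the study states do not by themselves fix this match.

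The 7 genes were left out of clustering, which used the 29891 cells as deposited. It took 1000 variable genes, 30 principal components and a shared-neighbour graph of 30 neighbours (leidenalg 0.10.2, Leiden resolution 2, seed 1). A pool's value for a cluster is shown where it has at least 10 of the cluster's cells. Cells carried 2759 to 49732 UMIs, with a median per pool of 7529.5 to 12771.5, and counts of UMIs limit the precision of low genes. Counts were summed per pool and tested with edgeR 4.0.16 (quasi-likelihood, TMM, low genes filtered, Benjamini-Hochberg over all genes tested, threshold 0.05), a step tested on simulated data. DESeq2 1.42.0 was an alternative. Shares were tested by exact permutation over 70 regroupings, two-sided. Correlations and levels between clusters are descriptions. The genes named are the 7, the listed genes the comparisons turn on and the 10 most like the 7 across clusters. The 7 genes, the lists and the promoter letters were chosen with earlier results of these data known. The Scrublet caller (in scanpy 1.11.5) marked 27 of 29891 cells (0.0903%), so no doublets were removed.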

Additional observations from a re-analysis of the deposited data

Results flagged for a closer look

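Among 134 groups of 4 pools looked at, 5 held a pool that stood apart from the other 3, and chance gives about 1 in 20. Pglyrp1 in LTHSC-like cells was at 53.8 CPM in CVT pool 6, above 47.4 to 48.4 CPM in the other CVT pools. Lcn2 in GMP-like cells was at 44.7 CPM in SPF pool 7, above 37.6 to 38.0 CPM in the other SPF pools, and Lcn2 in granulocyte-like cells was at 7717 CPM in CVT pool 5, below 8377 to 8459 CPM. Chil3 in granulocyte-like cells was at 10243 CPM in SPF pool 1, above 6065 to 6779 CPM. Pglyrp1 in cluster 22 was at 3439 CPM in SPF pool 1, a pool with 49 cells of that cluster.

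The difference between CVT and SPF pools changed between the pool sets for Camp (1.19 on the log2 scale, pools 5 to 8 minus pools 1 to 4) and Ngp (1.14) in GMP-like cells, with edgeR adjusted p = 0.0064 for both. The levels of both genes there were near those in MEP-like cells, and what sets the difference was not tested.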

How the results depend on the processing

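No paired analysis was possible because the replicate numbers of the groups name pools of different mice. The planned removal of called doublets was not run because too few cells were called. In its place, chosen after seeing the data, 1385 cells with the top 5% of doublet scores of each pool were left out and the rest reclustered. Fits of single granulocyte-like clusters, the interaction in MEP-like cells, the promoter letters, the sort markers and the values of cluster 21 were also added after seeing the data. The pool set block is a term for pools 1 to 4 against 5 to 8.

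The number of genes called was 0 in the fits reported for each class. In all KL cells DESeq2 called 13 and the pool set block 4, outside the granulocyte-like clusters 48 and 8, and in GMP-like cells 1 and 3. With every gene that had a UMI, 45 genes were called in GMP-like, 34 in granulocyte-like, 44 in LTHSC-like and 1 in MEP-like cells, and DESeq2 called 3 in MEP-like cells. Of the 7 genes this filter called 1 in granulocyte-like cells, where it called 34 of 14457 genes. The interaction then called 4 of the 7 in GMP-like cells, against 60 of 16029 genes (0.374%). It called 1 of the 7 outside the granulocyte-like clusters, against 46 of 18940 genes (0.243%), and 1 in MEP-like cells, against 33 of 16719 genes (0.197%).

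Signs turned mostly near 0, and the cause was not tested. In GMP-like cells, with the 7 genes kept for clustering, Lcn2 was at 0.18, Camp 0.20, Ngp 0.15 and Ltf 0.14. Without the top doublet scores Lcn2 was at 0.13, Ngp 0.10 and Ltf 0.0619 there, and with cells thinned to equal UMIs Camp was at 0.0214. In LTHSC-like cells Chil3 was at 0.0540 with resolution 1, 0.0383 with the 7 genes kept and 0.13 without the top doublet scores, and Retnlg was at -0.10 with DESeq2. In MEP-like cells without the top doublet scores Pglyrp1 was at 0.0434, Ngp 0.0832 and Ltf 0.10, and thinned Ltf was at 0.0614. In granulocyte-like cells Camp was at 0.0336 without the top doublet scores. The median of the 7 then moved from -0.33 to -0.04 in granulocyte-like cells and from -0.57 to -0.11 outside them. Cluster 19 alone gave Camp 0.0439 and Ngp 0.0021, and cluster 25 alone gave Chil3 0.0291, Pglyrp1 0.0434, Camp 0.20 and Ltf 0.11.

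Leaving out 1 pool gave ranges across 0. In all KL cells they were -0.60 to 0.11 for Pglyrp1, -0.66 to 0.11 for Camp, -0.85 to 0.0856 for Ltf and -1.68 to 0.0135 for Retnlg. In GMP-like cells they were -0.13 to 0.14 for Lcn2, -0.32 to 0.18 for Camp, -0.34 to 0.12 for Ngp, -0.39 to 0.15 for Ltf and -0.86 to 0.0558 for Retnlg. In LTHSC-like cells they were -0.28 to 0.34 for Chil3, -0.17 to 0.27 for Camp and -0.26 to 0.44 for Retnlg, in MEP-like cells -0.39 to 0.12 for Pglyrp1 and -0.56 to 0.16 for Retnlg, and outside the granulocyte-like clusters -0.10 to 0.19 for Pglyrp1. The difference in the share of granulocyte-like cells ran from -2.72 to 0.43 percentage points.

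Levels moved beyond 1 SD without the top doublet scores. In granulocyte-like cells Camp was then at 64020 CPM, Ngp 49963, Lcn2 11394, Chil3 8243, Ltf 7581 and Pglyrp1 3491. Chil3 was at 22.8 and Camp at 187 in GMP-like cells, and Camp at 311, Ngp at 223 and Ltf at 40.9 in monocyte-like cells. The monocyte-like values were lower than with all cells kept. With the 7 genes kept, Pglyrp1 in GMP-like cells was at 136 CPM.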
